A study of Mus musculus with 24 samples.

Results

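The 37 genes of the mouse mitochondrial genome were examined in RNA sequencing libraries of neural retina and eye cup from PRDM13-OE and wildtype mice with and without doxycycline (dox). The members were all genes that the deposited table places on chromosome MT, which were 37 of its 56748 genes. They comprised 13 mRNA genes for subunits of the respiratory chain and ATP synthase, 2 rRNA genes and 22 tRNA genes. PRDM13-OE mice were heterozygous for an insert at the Rosa26 locus in C57BL/6J, present as 1 copy, in which the broadly active EF-1α promoter drives the tetracycline transactivator rtTA and the dox-responsive TRE3G promoter drives HA-tagged human PRDM13. In these mice dox therefore acts both as a drug and as the inducer of PRDM13. Wildtype littermates carried no insert. Mice of both sexes were untreated or drank 2 mg/mL dox with 10% sucrose for 72 h from postnatal day 28. Whether untreated mice drank sucrose is not given in the sources used here, and if they did not, dox and sucrose cannot be told apart. Each of 12 mice, 3 for each combination of genotype and treatment, gave 1 neural retina and 1 eye cup library, where the eye cup is the tissue left after the neural retina is removed and holds retinal pigment epithelium (RPE), choroid and sclera. Libraries were made from poly(A) RNA.

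Mitochondrial DNA is transcribed from both strands into long precursors, which are cut mainly at the tRNAs that lie between the mRNAs and rRNAs. Most mRNAs come from one precursor, whereas mt-Nd6 and 8 tRNAs are encoded on the opposite strand. The mRNAs are translated inside the organelle on ribosomes built on the mitochondrial rRNAs. Dox belongs to the tetracyclines, which are made against bacterial ribosomes and also inhibit the mitochondrial ribosome. Photoreceptors and RPE cells are both rich in mitochondria.

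The results turned on a few stretches of the genome, which are shown as they stand in GRCm39, 5′ to 3′ on the strand of the gene. mt-Co1 encodes the catalytic core subunit of cytochrome c oxidase (complex IV), and mt-Cytb encodes the only mitochondrially encoded subunit of complex III. The starts of both genes are shown because their relative abundance separated dox from untreated libraries in both tissues, and capitals mark the first codon.
mt-Co1, chrM:5328-5387, plus strand: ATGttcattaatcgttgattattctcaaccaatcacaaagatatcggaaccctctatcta
mt-Cytb, chrM:14145-14204, plus strand: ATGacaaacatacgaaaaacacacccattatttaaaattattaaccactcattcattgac
The end of mt-Cytb, unlike that of mt-Co1, holds only the first base of a stop codon (capitals), and the codon is completed by the poly(A) tail of the RNA.
mt-Co1 end, chrM:6813-6872, plus strand: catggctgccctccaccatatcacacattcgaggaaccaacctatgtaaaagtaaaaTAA
mt-Cytb end, chrM:15229-15288, plus strand: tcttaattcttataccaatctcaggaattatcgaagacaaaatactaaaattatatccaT
The leucine tRNA mt-Tl1, which follows mt-Rnr2, and the proline tRNA mt-Tp, the most counted tRNA in both tissues, are shown whole as a tRNA of each strand, with the anticodon in capitals.
mt-Tl1, chrM:2676-2750, plus strand: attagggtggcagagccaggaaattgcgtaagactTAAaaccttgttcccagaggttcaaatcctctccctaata
mt-Tp, chrM:15356-15422, minus strand: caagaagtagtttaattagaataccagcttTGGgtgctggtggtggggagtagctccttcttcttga
The mt-Atp8 and mt-Atp6 genes, which encode ATP synthase subunits, overlap by 43 bases, and capitals mark the first codon of mt-Atp6.
Overlap, chrM:7927-7969, plus strand: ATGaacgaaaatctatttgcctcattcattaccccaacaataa
The last pair shows a stretch of mt-Nd3 and the tRNA gene before it beside the same stretch of a near-identical copy in the nuclear genome. The capital marks position 9461 of the mitochondrial genome, the difference T9461C (mitochondrial base first, position counted from 1 along chrM).
Mitochondrial, chrM:9431-9491, plus strand: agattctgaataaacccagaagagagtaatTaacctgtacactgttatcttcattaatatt
Nuclear copy, chr1:24652168-24652228, minus strand: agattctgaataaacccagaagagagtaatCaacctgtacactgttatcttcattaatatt

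Libraries held between 15825059 and 24908314 counts on genes, so that the 95% Wilson interval of a library's mitochondrial share was at most 0.0175 percentage points to either side, which covers counting error only. Retinas and eye cups differed in their defining markers. Summed levels of 10 rod photoreceptor genes were 57119 to 78021 CPM (counts scaled to a common library total) in retinas and 3046 to 51975 CPM in eye cups, and those of 10 RPE and pigment genes were 620 to 958 CPM in retinas and 7257 to 37393 CPM in eye cups, with no gene of either list at 0. Sex is not in the sample labels and was inferred, as female where Xist exceeded Ddx3y in CPM. The retina and eye cup of a mouse agreed in inferred sex for 12 of 12 mice. Females were 1 of 3 untreated and 2 of 3 dox wildtype mice. They were 2 of 3 untreated and 3 of 3 dox PRDM13-OE mice, so that genotypes and treatments were both unequal in sex. The human transgene was not analysed here. Gm13394, a gene chosen after its values were seen, was at 179 to 565 CPM in 10 PRDM13-OE libraries and at 1.96 to 8.04 CPM in the 12 wildtype libraries. Both libraries labelled PRDM13-OE untreated mouse 1 were at 3.05 and 4.76 CPM, within the wildtype range, so that several comparisons of untreated PRDM13-OE mice are also given without it.

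Levels differed widely between the mitochondrial genes. In untreated wildtype retinas, the authors' FPKM (counts per kilobase of gene, scaled between libraries) was highest for mt-Co1 at 4238 ± 246 (SD, n = 3), followed by mt-Cytb at 3653 ± 193. The subunits of complex I came next, with mt-Nd1 at 2633 ± 160, mt-Nd2 at 1398 ± 33.7, mt-Nd5 at 1164 ± 75.1, mt-Nd6 at 1104 ± 60.7 and mt-Nd4 at 991 ± 54.7. Of these neighbours in the order, only mt-Nd5 and mt-Nd6 overlapped between libraries. The rRNAs mt-Rnr2 (610 ± 31.8) and mt-Rnr1 (273 ± 17.7), which form the core of the large and small mitochondrial ribosome subunits, were lower. The remaining mRNAs were far lower in FPKM: mt-Co2 at 75.3 ± 38, mt-Nd3 at 34.7 ± 5.54, mt-Atp6 at 32.9 ± 2.69, mt-Co3 at 31.2 ± 0.524, mt-Nd4l at 16.2 ± 1.48 and mt-Atp8 at 1.66 ± 0.780. Among these, mt-Nd3 overlapped mt-Atp6 and mt-Atp6 overlapped mt-Co3, and the other neighbours did not overlap.

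In untreated wildtype eye cups, mt-Co1 (20140 ± 5286 FPKM), mt-Cytb (18139 ± 3536) and mt-Nd1 (12841 ± 2899) again led, with each of the first 2 overlapping the next. mt-Nd6 came next at 7618 ± 1311, but it overlapped mt-Nd2 (7262 ± 1608), which overlapped mt-Nd5 (6322 ± 1527), which overlapped mt-Nd4 (6181 ± 1325). mt-Rnr2 was at 1256 ± 325 and mt-Rnr1 at 987 ± 214. The same 6 mRNAs came last, from mt-Co2 at 350 ± 47.1, mt-Atp6 at 333 ± 215 and mt-Co3 at 295 ± 56.3 to mt-Nd3 at 69.3 ± 26.7, mt-Nd4l at 61.7 ± 27.5 and mt-Atp8 at 4.60 ± 1.94. In both tissues the 6 most counted mRNAs held most of the mitochondrial counts, 89.9% to 91.1% in retinas and 90.1% to 92.5% in eye cups.

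**Figure D1:**
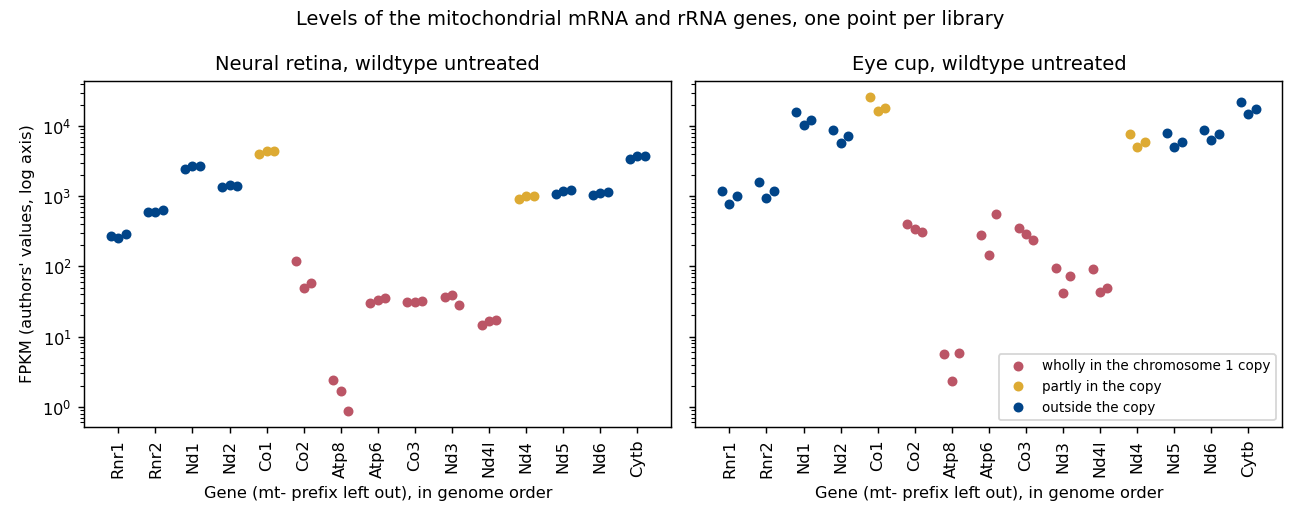
Authors' FPKM (log axis) of the 13 mRNA and 2 rRNA genes in untreated wildtype retinas and eye cups, one point per library and 3 libraries per gene, coloured by how much of the gene lies in the chromosome 1 copy. mt-Co1 and mt-Cytb lead in both tissues, and the 6 genes that lie wholly in the copy are the lowest 6, from mt-Co2 (75.3 FPKM in retina, 350 in eye cup) down to mt-Atp8 (1.66 and 4.60).

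The 6 lowest mRNAs are those that lie wholly within a nuclear copy of the mitochondrial genome. A segment at chr1:24650616-24655269 (minus strand) matched chrM:6390-11042 over 4654 aligned bases with 99.936% identity, with the substitutions A6393T and T9461C and 1 extra base in the copy at position 9824 as its only differences. It holds 6 mRNA genes (mt-Co2, mt-Atp8, mt-Atp6, mt-Co3, mt-Nd3 and mt-Nd4l) and 5 tRNA genes whole, and parts of mt-Co1 and mt-Nd4. A second copy at chr2:22477300-22480546 matched chrM:4441-7699 with 97.4% identity. Every window of 100 bases in mt-Co2, mt-Atp8, mt-Atp6, mt-Co3 and mt-Nd4l had an exact nuclear copy, as had 98.8% of those in mt-Nd3, 60.8% in mt-Nd4, 30.8% in mt-Co1, 3.19% in mt-Nd2 and 1.21% in mt-Rnr2, and none in the other mRNA and rRNA genes. A read from such a window cannot be assigned to the mitochondrial or the nuclear gene by its sequence, and how the counting treated it is not given in the sources used here.

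Pseudogenes annotated in the chromosome 1 copy carried counts beside each of 5 whole counterparts, to differing degrees. In retinas, Gm28661, the most counted of them and the copy of mt-Co2, had a median of 748.5 counts beside 771.5 for mt-Co2, and Gm10925, the copy of mt-Atp6, had a median of 547.5 beside 547.5. Gm28437, the copy of mt-Co3, had 376.5 beside 585.5, Gm10222, the copy of mt-Nd4l, had 55.5 beside 98.5, and Gm28438, the copy of mt-Nd3, had 52 beside 230. By contrast Gm29216, the copy of the end of mt-Co1, had 174 counts beside 126157, and Gm28439, the copy of the start of mt-Nd4, had 197.5 beside 26738.5. Levels of the 6 whole-copy genes are therefore uncertain, as are those of mt-Atp8 with mt-Atp6, mt-Nd4l with mt-Nd4, and mt-Nd5 with mt-Nd6, which share bases on the same or on opposite strands. Whether the copy accounts for the low levels was not tested.

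The tRNAs contributed little to these poly(A) libraries. All 22 tRNA genes together held 0.127% to 0.183% of mitochondrial counts in retinas and 0.182% to 0.290% in eye cups. The 9 with a mean of at least 10 counts in a tissue were mt-Tl1, mt-Tw, mt-Tn, mt-Tc, mt-Ty, mt-Tg, mt-Tl2, mt-Te and mt-Tp, led by mt-Tp at means of 170 counts per retina and 1089 per eye cup. mt-Te averaged 59.4 and 789 counts, and mt-Tl1 averaged 150 and 228. The other 13 never exceeded 29 counts in a library and summed to 732 counts over all 24 libraries, and 1 of them, mt-Tf, was at 0 in every library. A total of 32 members reached 10 counts summed over the 12 libraries of a tissue, in retinas and in eye cups alike.

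Mitochondrial genes took a larger share of the RNA in eye cups than in retinas. They held 1.78% to 2.43% of gene counts in retinas (median 2.19%) and 3.91% to 17.8% in eye cups (median 6.54%), and the tissues did not overlap. Within a mouse the eye cup share was 1.93 to 7.65 times the retina share (median 3.01), higher in 12 of 12 mice. In bulk tissue, a different mix of cells and a different amount of RNA per cell cannot be told apart. Between untreated wildtype retinas and eye cups, edgeR's quasi-likelihood test called 22 of 31 tested members at an adjusted p-value under 0.05, all lower in retina and all past a log2 fold change of 1 (background: 61.5% of all genes called, 32.5% lower in retina, 45.2% past that fold in either direction). The 13 mRNAs had a median log2 fold change (retina over eye cup) of -2.32, from -3.36 for mt-Atp6 to -1.0 for mt-Nd3, beside a median of -0.06 over all genes. Of the mRNAs, mt-Atp8 alone was not called. With the mouse as a block, since both tissues came from the same animals, 21 members were called.

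**Figure D2:**
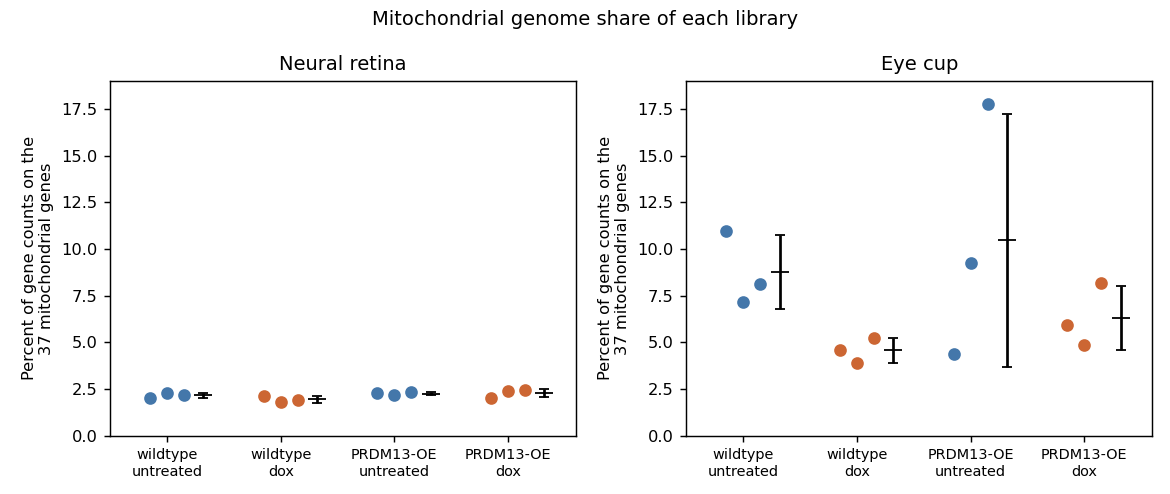
Percent of all gene counts on the 37 mitochondrial genes (vertical axis) in each retina and eye cup library, by genotype and treatment, with 3 libraries per group. The 12 retinas lie between 1.78% and 2.43%, below all 12 eye cups, which spread from 3.91% to 17.8%.

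The members with the smallest adjusted p-values between the tissues lay on both strands. By edgeR, mt-Co3, a complex IV subunit, had a log2 fold change of -3.24 ± 0.163 (SE, adjusted p = 6.49e-06), with 31, 30.9 and 31.8 FPKM in the retinas and 353, 292 and 240 in the eye cups. mt-Nd6, the complex I subunit encoded on the minus strand, had a log2 fold change of -2.79 ± 0.188, with 1036, 1120 and 1154 FPKM in the retinas and 8856, 6245 and 7753 in the eye cups. The minus-strand tRNAs mt-Te, mt-Tc and mt-Tn, for glutamic acid, cysteine and asparagine, had log2 fold changes of -4.34, -3.57 and -3.19. For each of these 5 genes, every retina was lower than every eye cup.

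The make-up of the mitochondrial RNA also differed between the tissues. The rRNAs held 5.56% to 6.56% of mitochondrial counts in retinas and 2.74% to 5.10% in eye cups, with no overlap. Genes of the minus strand held 2.62% to 2.98% in retinas and 3.51% to 4.55% in eye cups, again with no overlap. For the tRNAs the strands moved apart. Minus-strand tRNAs held 0.0823% to 0.115% of mitochondrial counts in retinas and 0.155% to 0.263% in eye cups, whereas plus-strand tRNAs held 0.0392% to 0.0683% in retinas and 0.0145% to 0.0377% in eye cups. The plus-strand mt-Tl1 shown above was at 8.55, 10.2 and 7.95 CPM in untreated wildtype retinas and at 16.7, 5.15 and 12.7 CPM in the eye cups, and did not pass the test. The minus-strand mt-Tp was at 11.3, 11.6 and 9.16 CPM in the retinas and at 88.5, 48.6 and 73.8 CPM in the eye cups. Whether strand was kept in these libraries is not settled in the sources used here, so reads from the strand opposite a tRNA or an mRNA may be counted in it.

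In wildtype mice, which carry no transgene, no mitochondrial gene passed the test with dox in the retina. The mitochondrial share was 2.02%, 2.29% and 2.20% in untreated retinas and 2.15%, 1.78% and 1.92% in dox retinas, which overlapped. edgeR called 0 of 31 tested members (background: 0.00485% of all genes), while 8 (25.8%) had an unadjusted p under 0.05, as had 9.32% of all genes, and DESeq2 called 1, mt-Co1, and 0.451% of all genes. The 13 mRNAs had a median log2 fold change of -0.09 (all genes -0.01), from -0.67 to 0.79. mt-Co1 was at 3954, 4378 and 4382 FPKM in untreated and 3770, 3303 and 3585 FPKM in dox retinas, so that all 3 dox retinas were lower. mt-Cytb was at 3433, 3730 and 3795 FPKM in untreated and 4031, 3333 and 3468 in dox retinas, which overlapped. Crystallins of the lens, 8 genes in sum, reached 95.3 to 10447 CPM in the wildtype dox retinas and 154 to 757 CPM in the untreated ones. Markers of other cells separated these retinas without overlap. Cone genes (8) summed to 1355 to 1439 CPM without and 1201 to 1263 CPM with dox, RPE and pigment genes to 688 to 754 and 801 to 850.0 CPM, and fibroblast genes to 12.8 to 19.8 and 20.7 to 34.7 CPM, with no gene of these lists at 0. The part of these markers in the mitochondrial values was not tested.

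In the eye cups of wildtype mice, the share of mitochondrial genes was 11.0%, 7.17% and 8.15% (mean 8.76% ± 1.98) without dox and 4.61%, 3.91% and 5.24% (4.58% ± 0.665) with dox, and the groups did not overlap. mt-Co1 was at 26183, 16376 and 17861 FPKM without and 7950, 7015 and 9863 with dox. mt-Nd5, a complex I subunit, was at 8024, 5072 and 5871 FPKM without and 2406, 2171 and 3216 with dox. mt-Rnr1 was at 1198, 770 and 994 FPKM without and 525, 417 and 470 with dox. For these 3 genes every dox eye cup was lower than every untreated one. All 13 mRNAs had a log2 fold change below 0, from -1.43 to -0.28 with a median of -1.08 (all genes -0.05). edgeR nevertheless called 0 of 31 tested members (background: 0.0% of all 21799 genes), the smallest adjusted p being 0.0673, while 18 of 31 (58.1%) had an unadjusted p under 0.05, as had 29.9% of all genes. DESeq2 called 17 members and 18.5% of all genes. Without wildtype dox mouse 3 edgeR called 9 members (29.0%) and 6.59% of all genes, and without wildtype untreated mouse 1 it called 7 members (22.6%) and 13.5% of all genes, so that the calls, over all genes as well, depended on single eye cups.

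Markers of other cells moved with the same eye cups. RPE and pigment genes summed to 23673 to 35323 CPM in untreated and 9204 to 18676 CPM in dox wildtype eye cups, with no overlap. Rod genes summed to 3046 to 23994 CPM without and 25942 to 51975 CPM with dox, and cone genes to 62.0 to 349 CPM without and 395 to 725 CPM with dox, again with no overlap, and no gene of these lists was at 0. A fibroblast list of 5 genes summed to 1929 to 2191 CPM without and 1246 to 2159 CPM with dox. The part of tissue make-up in the lower mitochondrial share of dox eye cups was not tested.

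Whether the change with dox differed between the tissues of wildtype mice was asked with an interaction term. edgeR called 3 of 31 tested members, all with a higher log2 change in retina than in eye cup (background: 7.53% of all genes called, 2.02% higher). mt-Co3 had a difference of 1.44 ± 0.279 (SE, adjusted p = 0.0252), mt-Tc one of 1.39 ± 0.340 (adjusted p = 0.0374) and mt-Nd5 one of 1.08 ± 0.287 (adjusted p = 0.0444), beside a median of -0.13 over all genes. mt-Co3 was at 40.9, 34.0 and 25.2 FPKM in dox retinas, around the untreated 30.9 to 31.8, and at 126, 85.5 and 107 FPKM in dox eye cups, below the untreated 240 to 353. With the mouse as a block, mt-Co3 remained called at an adjusted p of 0.0485 by edgeR, while mt-Tc and mt-Nd5 were at 0.0593 and 0.0667. The count ranged from 0 to 12 when single libraries were left out, while the share of all genes called ranged from 0.0% to 23.0%, and no member was called without any one of the 3 untreated retinas, retina dox mice 1 and 2 or eye cup dox mice 1 and 2.

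**Figure D3:**
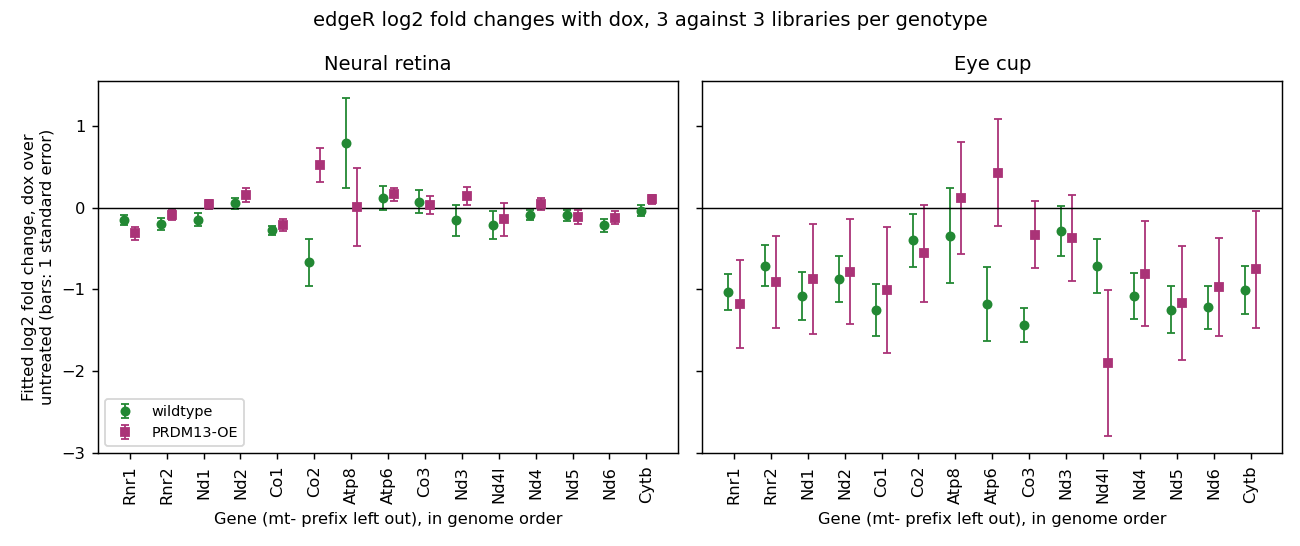
Fitted edgeR log2 fold change (dox over untreated, bars 1 standard error) of each mRNA and rRNA gene in genome order, for wildtype and PRDM13-OE mice, in retinas and eye cups, from 3 against 3 libraries. In the retinas of wildtype mice the 13 mRNAs lie between -0.67 (mt-Co2) and 0.79 (mt-Atp8), and in the eye cups all 13 mRNAs of wildtype mice lie below 0 with a median of -1.08, although no gene there passed the adjusted threshold.

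In PRDM13-OE mice, dox also induces the transgene, so that the drug and PRDM13 cannot be told apart within this genotype. The retina share of mitochondrial genes was 2.28%, 2.17% and 2.32% without and 2.05%, 2.39% and 2.43% with dox. edgeR called 1 of 30 tested members, which was lower with dox (background: 5.0% of all genes called, 2.96% lower, 1.04% past a log2 fold change of 1 as well). This was mt-Rnr1, the rRNA of the small mitochondrial ribosome subunit, with 281, 337 and 329 FPKM without and 249, 232 and 270 FPKM with dox. All 3 dox retinas were below the untreated ones, and the log2 fold change was -0.31 ± 0.0802 (SE, adjusted p = 0.0428, edgeR). Without PRDM13-OE untreated mouse 1 it was -0.40 (adjusted p = 0.00255, edgeR), but without any other single mouse of the comparison the adjusted p of edgeR was 0.0535 or higher. In the same retinas rod genes summed to 72495 to 78021 CPM without and 57119 to 62943 CPM with dox, cone genes to 1302 to 1332 and 756 to 819 CPM, red blood cell genes to 28.1 to 63.3 and 0.738 to 1.22 CPM, and skeletal muscle genes (12) to 29.0 to 90.7 and 25.2 to 28.6 CPM, none of them with overlap. Up to 2 of the 5 red blood cell genes were at 0 with dox, and up to 5 muscle genes were at 0 without and 4 with dox. Their part in the change of mt-Rnr1 was not tested. In wildtype retinas mt-Rnr1 was at 274, 254 and 290 FPKM without and 257, 251 and 238 with dox, and these groups overlapped. The interaction of genotype and dox called 0 of 32 members in the retina (background: 3.03%), with 3 (9.38%) at an unadjusted p under 0.05 by edgeR, beside 14.4% of all genes, and 0 called by DESeq2, beside 4.12% of all genes. Without PRDM13-OE untreated mouse 1 edgeR also called 0 members for this interaction.

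In the eye cups of PRDM13-OE mice, the mitochondrial share was 4.40%, 9.26% and 17.8% without dox (10.5% ± 6.78) and 5.92%, 4.85% and 8.17% with dox (6.31% ± 1.69). These groups overlapped, but without untreated mouse 1, at 4.40%, they did not. In all libraries edgeR called 0 of 30 tested members (background: 0.0139%), with 3 at an unadjusted p under 0.05 beside 4.14% of all genes, and 0 called by DESeq2 beside 0.25% of all genes. Without untreated mouse 1 edgeR also called 0 of 30, beside 0.019% of all genes. The 13 mRNAs had a median log2 fold change of -0.78, with 11 below 0. This median rested on untreated mouse 3, the eye cup with the share of 17.8%, and was -0.05 without it. Without untreated mouse 1 it was -1.17. RPE and pigment genes summed to 18252 to 37393 CPM without and 7257 to 19881 CPM with dox, and red blood cell genes (5 in the list) to 556 to 1013 CPM without and 13.2 to 15.1 CPM with dox, and their part in these values was not tested. Over both genotypes, 6 dox against 6 untreated libraries separated without overlap for 0 of 32 members in retinas (background: 0.39% of all genes) and for 1 of 32 in eye cups, mt-Ty, which was lower with dox (background: 1.4%, 1.11% lower). Without PRDM13-OE untreated mouse 1, whose eye cup had the lowest share of the untreated ones, 6 dox against 5 untreated eye cups separated for 10 of 32 members, all lower with dox (mt-Co1, mt-Nd1, mt-Nd4, mt-Nd5, mt-Nd6, mt-Tp, mt-Te, mt-Tc, mt-Tn and mt-Ty), as did 3.64% of all genes in either direction. In retinas it remained 0 of 32, beside 0.865% of all genes. RPE and pigment genes also separated dox from untreated eye cups of wildtype mice, as given above, and their part in the 10 members was not tested. The eye cup interaction of genotype and dox called 0 of 32 members (background: 0.0%), with 2 (6.25%) at an unadjusted p under 0.05 by edgeR, which is near the 6.40% of all genes, and 0 called by DESeq2 beside 0.113% of all genes, and edgeR called 0 without mouse 1 as well.

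For a few of the 37 genes, the share of the mitochondrial RNA separated dox from untreated libraries of both genotypes. No background over other genes was computed for these shares, so whether their number is unusual was not tested. By normalised counts, the same rule separated 0 of 32 members in retinas and 1 of 32 in eye cups. In retinas, mt-Co1 held 32.2% to 34.6% of mitochondrial counts in the 6 untreated libraries and 28.6% to 30.7% in the 6 dox libraries. mt-Cytb held 20.4% to 21.3% in untreated and 21.9% to 23.8% in dox retinas. In eye cups, mt-Cytb held 19.96% to 21.3% without and 21.6% to 22.9% with dox, mt-Nd2 7.29% to 8.04% without and 8.09% to 9.16% with dox, and mt-Nd5 11.0% to 12.3% without and 9.48% to 10.7% with dox. The tRNAs mt-Tn (0.0258% to 0.0350% without and 0.0189% to 0.0235% with dox) and mt-Ty (0.0107% to 0.0144% without and 0.00671% to 0.00935% with dox) were lower in dox eye cups. None of these ranges overlapped. Leaving out PRDM13-OE untreated mouse 1 can only narrow the untreated ranges, so that these genes stay apart without it. The share of mt-Co1 in eye cups was 29.4% to 32.5% without and 27.9% to 29.7% with dox, which overlapped. Shares within a library sum to a whole, so that a higher share of one gene lowers the others, and they are given without a test.

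**Figure D4:**
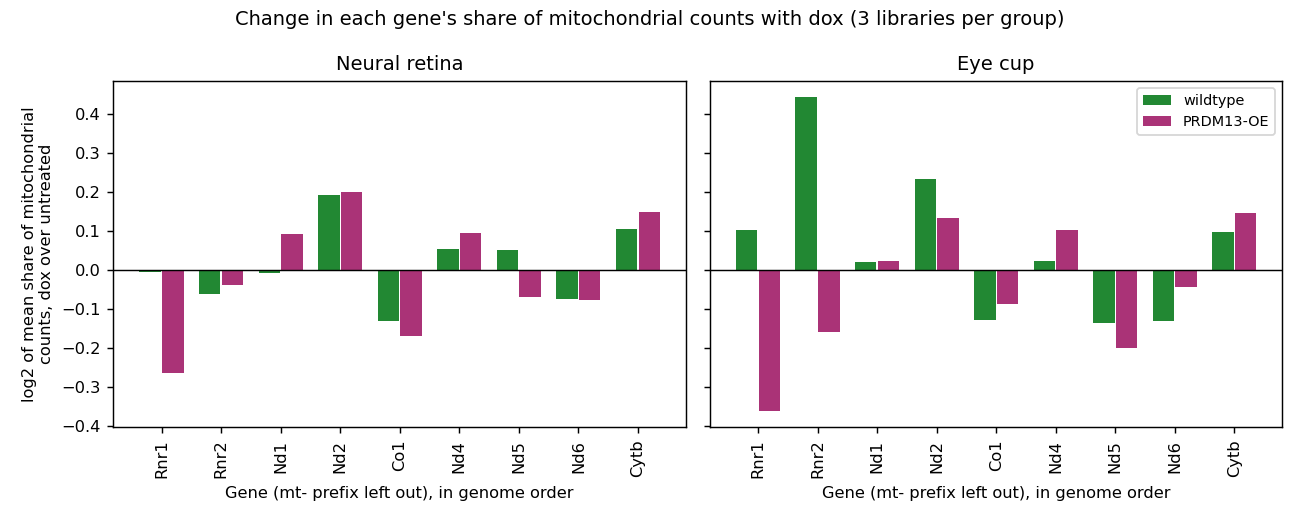
log2 ratio of each gene's mean share of mitochondrial counts, dox over untreated, in genome order for genes outside or only partly in the chromosome 1 copy, for wildtype and PRDM13-OE mice in retinas and eye cups, with 3 libraries per group. mt-Cytb and mt-Nd2 lie above 0 and mt-Co1 lies below 0 for both genotypes in both tissues.

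The ratio of mt-Cytb to mt-Co1 counts, chosen after its values were seen and described without a test, held this shift in a single number that does not depend on library scaling. In wildtype retinas it was 0.643, 0.631 and 0.641 without and 0.792, 0.747 and 0.716 with dox. In PRDM13-OE retinas it was 0.648, 0.602 and 0.618 without and 0.819, 0.765 and 0.745 with dox. Every dox retina was above every untreated retina, in both genotypes. Cone genes separated the same retinas, at 1302 to 1439 CPM in the 6 untreated and 756 to 1263 CPM in the 6 dox libraries, and their part in the ratio and in the shares above was not tested. The mean was 0.630 ± 0.0178 (SD, n = 6) without and 0.764 ± 0.0368 (n = 6) with dox, 1.21 times as high.

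In the eye cups, the mt-Cytb to mt-Co1 ratio was 0.621, 0.677 and 0.725 in untreated and 0.794, 0.754 and 0.813 in dox wildtype mice. It was 0.660, 0.667 and 0.625 in untreated and 0.727, 0.805 and 0.762 in dox PRDM13-OE mice. The 6 dox eye cups (0.776 ± 0.0335) were again all above the 6 untreated ones (0.663 ± 0.0383), 1.17 times as high on average, although the highest untreated value of 0.725 lay next to the lowest dox value of 0.727. The same mice gave both tissues, so that the eye cups are not independent of the retinas. In wildtype mice, RPE and pigment, rod and cone genes separated dox from untreated eye cups, as given above. Red blood cell genes did so in PRDM13-OE eye cups. The part of these markers in the ratio and in the eye cup shares was not tested. Leaving out each library in turn kept the difference of the means (dox minus untreated) between 0.123 and 0.143 in retinas and between 0.1001 and 0.126 in eye cups. Inferred sex was unequal between groups, with females making up 3 of the 6 untreated and 5 of the 6 dox mice. Within females the ratio was 0.602 to 0.648 in 3 untreated and 0.745 to 0.819 in 5 dox retinas, and 0.660 to 0.677 and 0.727 to 0.805 in the eye cups. The single male with dox was at 0.716 in retina and 0.813 in eye cup, beside 0.618 to 0.643 and 0.621 to 0.725 in the 3 untreated males.

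**Figure D5:**
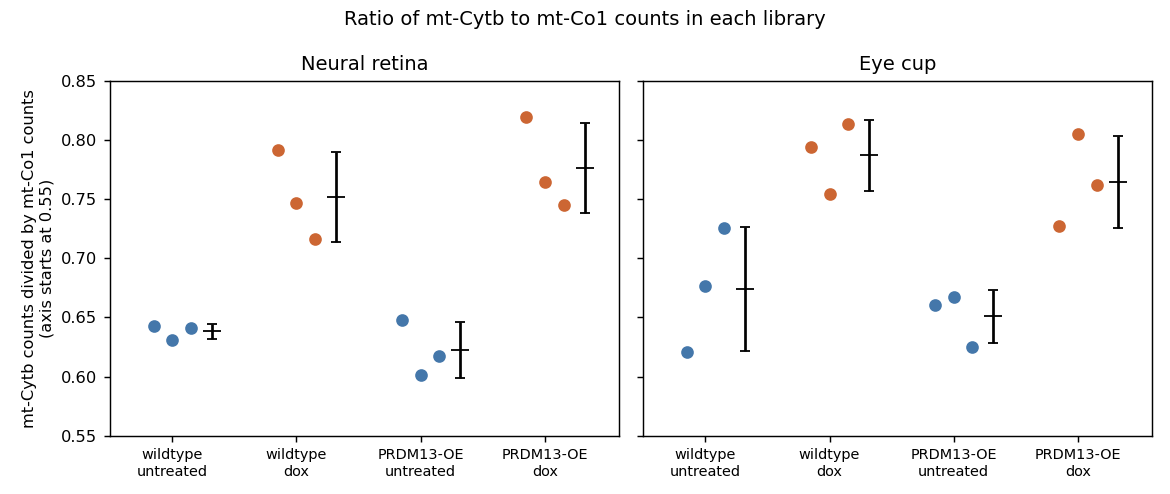
mt-Cytb counts divided by mt-Co1 counts (vertical axis, starting at 0.55) in each retina and eye cup library by genotype and treatment, 3 libraries per group. Dox libraries lie at 0.716 to 0.819 in retinas and 0.727 to 0.813 in eye cups, and untreated ones at 0.602 to 0.648 and 0.621 to 0.725.

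Other pairs of genes were separated in the same way. The 105 ratios between the 13 mRNA and 2 rRNA genes share genes. No background over ratios of other genes was computed, so whether the counts given here are unusual was not tested. Of the 105, 9 kept dox and untreated libraries apart in retinas, 8 did so in eye cups and 4 in both. The 4 were mt-Cytb over mt-Co1, mt-Cytb over mt-Nd6, mt-Nd2 over mt-Nd5 and mt-Nd2 over mt-Nd6, each higher with dox in both tissues. None of these 5 genes lies wholly in the chromosome 1 copy, but mt-Co1 lies partly in it, and mt-Nd5 and mt-Nd6 share bases. The ratio of mt-Nd2 to mt-Nd5 had a mean of 0.661 in untreated and 0.762 in dox retinas, and of 0.661 in untreated and 0.844 in dox eye cups. The ratio of mt-Rnr2 to mt-Rnr1 overlapped between dox and untreated libraries in both tissues.

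The effect of the PRDM13-OE genotype was asked first without dox. edgeR called 0 of 31 tested members in untreated retinas (background: 0.00484%), with 4 (12.9%) at an unadjusted p under 0.05 beside 3.76% of all genes, and 1 called by DESeq2, mt-Co3, beside 0.0194% of all genes. Without PRDM13-OE untreated mouse 1 edgeR also called mt-Co3, and 0.0247% of all genes. Cone genes summed to 1302 to 1332 CPM in PRDM13-OE and 1355 to 1439 CPM in wildtype untreated retinas, lens crystallins to 4.39 to 94.0 and 154 to 757 CPM, and skeletal muscle genes to 29.0 to 90.7 and 24.6 to 27.7 CPM, and their part in these values was not tested. In untreated eye cups edgeR called 0 of 31 (background: 0.0%), with 1 (3.23%) at an unadjusted p under 0.05 beside 1.87% of all genes, and 0 called by DESeq2 beside 0.0139% of all genes. Without PRDM13-OE untreated mouse 1 edgeR called 0 of 31 there, beside 1.42% of all genes. The median log2 fold change of the 13 mRNAs there (PRDM13-OE over wildtype) was 0.27. It was -0.42 without PRDM13-OE untreated mouse 3 and 0.65 without PRDM13-OE untreated mouse 1.

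With dox in both genotypes, 4 of 29 tested members were higher in PRDM13-OE than in wildtype retinas by edgeR (background: 12.5% of all genes called, 5.01% higher), and none of the 4 passed a log2 fold change of 1, as 2.41% of all genes did. mt-Co2, a complex IV subunit, was at 58.9, 122 and 81.8 FPKM in PRDM13-OE and 61.3, 47.2 and 35.4 FPKM in wildtype dox retinas, with a log2 fold change of 0.90 ± 0.232 (SE, adjusted p = 0.0254). mt-Atp6 was at 46.8, 51.2 and 50.2 beside 46.9, 30.8 and 31 FPKM (0.48 ± 0.137, adjusted p = 0.0387). The groups overlapped for both. mt-Co3 was at 41.6, 42.8 and 53.9 beside 40.9, 34.0 and 25.2 FPKM (0.50 ± 0.149, adjusted p = 0.0466), and mt-Nd4l, a small complex I subunit, at 17.3, 24.7 and 20.5 beside 15.8, 14.2 and 12.5 FPKM (0.59 ± 0.175, adjusted p = 0.0469). These did not overlap.

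All 4 genes lie wholly within the chromosome 1 copy. Without dox, the 6 genes wholly in the copy had a median log2 fold change of 0.36 (PRDM13-OE over wildtype retinas), from -0.28 to 0.55. Their interaction of genotype and dox in retina had a median of 0.06, from -0.78 to 1.19. When the counts of each pseudogene were added to its mitochondrial counterpart and all genes were refitted, edgeR called mt-Co2 alone, at a log2 fold change of 0.65 (adjusted p = 0.0465), while mt-Co3, mt-Atp6 and mt-Nd4l were at adjusted p-values of 0.0918, 0.0944 and 0.103. In the fit without this addition, 1 of 9 tested pseudogenes of the mitochondrial genome was called by edgeR, beside 12.5% of all genes. It was Gm29216, the pseudogene of the end of mt-Co1, which was higher in the PRDM13-OE dox retinas (log2 fold change 0.67 ± 0.193, adjusted p = 0.0425, edgeR). The 2 rRNAs and the 5 mRNAs outside the copy had log2 fold changes from 0.00 to 0.20. The count of called members was 0 without wildtype dox mouse 2 or PRDM13-OE dox mice 2 or 3, 1 without wildtype dox mouse 3, 6 without wildtype dox mouse 1 and 5 without PRDM13-OE dox mouse 1, while 7.52% to 11.0% of all genes were called in these fits. Rod genes were lower in PRDM13-OE dox retinas (57119 to 62943 CPM) than in wildtype dox retinas (72215 to 73722 CPM), as were cone genes (756 to 819 beside 1201 to 1263 CPM), RPE and pigment genes (634 to 663 beside 801 to 850.0 CPM), lens crystallins (3.32 to 24.9 beside 95.3 to 10447 CPM) and red blood cell genes (0.738 to 1.22 beside 30.4 to 75.8 CPM), and their part in these values was not tested. In dox eye cups, edgeR called 0 of 31 members between the genotypes (background: 0.0184%), with 1 (3.23%) at an unadjusted p under 0.05 beside 8.24% of all genes, and 1 called by DESeq2, mt-Co3, beside 0.547% of all genes. All 13 mRNAs had log2 fold changes above 0 there (median 0.51, PRDM13-OE over wildtype), but without PRDM13-OE dox mouse 3 the median was 0.29 and 1 mRNA was below 0. Red blood cell genes summed to 13.2 to 15.1 CPM in PRDM13-OE and 252 to 573 CPM in wildtype dox eye cups, and lens crystallins to 5.28 to 312 and 568 to 2991 CPM, and their part in these values was not tested.

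Nuclear genes that copy, transcribe and translate the mitochondrial genome were examined in the same fits. Of 103 tested nuclear genes in 4 lists (transcription and RNA processing, mtDNA maintenance, translation factors, and tRNA synthetases of mitochondria), 0 were called with dox in wildtype retinas by edgeR, the smallest adjusted p being 0.303, beside 0.00485% of all genes. None was called in an eye cup comparison of treatment or genotype by edgeR, the smallest adjusted p there being 0.0673, where at most 0.0184% of all genes were called in any of these comparisons, so that the zeros are no result about these lists. Polg2, the accessory subunit of the mitochondrial DNA polymerase, fell in PRDM13-OE retinas with dox. It was at 8.92, 7.46 and 8.99 FPKM without and 4.27, 4.70 and 5.60 FPKM with dox, and the fitted log2 fold change was -0.77 ± 0.109 (SE, adjusted p = 0.000751, edgeR). Of the 103 genes, 1 was called there, beside 5.0% of all genes, in retinas whose rod and cone genes also separated as given above, and the part of these markers in its fall was not tested. In wildtype retinas it was at 7.82, 8.16 and 7.89 FPKM without and 6.73, 7.53 and 7.99 with dox, and the interaction of genotype and dox was -0.65 (adjusted p = 0.0152, edgeR). Without PRDM13-OE untreated mouse 1 these were -0.75 (adjusted p = 0.00191) and -0.62 (adjusted p = 0.0301) by edgeR. Against wildtype dox retinas the log2 fold change was -0.57 (adjusted p = 0.00319, edgeR). Endog, a mitochondrial endonuclease, was higher in PRDM13-OE than in wildtype dox retinas, at 17.1, 16.4 and 15.0 beside 11.7, 13.6 and 14.0 FPKM (log2 fold change 0.34, adjusted p = 0.0384, edgeR). Without dox it was at 13.9 to 14.7 FPKM in PRDM13-OE and 9.97 to 12.3 FPKM in wildtype retinas, also without overlap (log2 fold change 0.34, adjusted p = 0.995, edgeR), and the interaction of genotype and dox was 0.01 (adjusted p = 0.991, edgeR). When each of the 6 libraries was left out in turn, Polg2 passed in 6 of 6 fits of that comparison and Endog in 1 of 6, with adjusted p-values up to 0.137 by edgeR. Polg2 and Endog were the 2 of the 103 genes called in that comparison, beside the 12.5% of all genes.

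Between untreated wildtype tissues, 54 of the 103 nuclear genes were called by edgeR, beside the background of 61.5%, and they were not of one direction. Of the 41 transcription and RNA processing genes, 15 were higher and 6 lower in retina. The 24 mtDNA maintenance genes split into 7 higher and 8 lower, the 21 translation factors into 6 and 4, and the 17 tested tRNA synthetases into 7 and 1, beside 29.0% of all genes higher and 32.5% lower. For the difference between tissues in the change with dox, 6 of the 103 were called, beside 7.53% of all genes. Dhx30, Ptcd1 and Ptcd3, which act on mitochondrial RNA or ribosomes, and the tRNA synthetases Mars2 and Aars2 had a lower log2 change in retina than in eye cup, from -1.09 to -0.70, and Mrpl58, a release factor of the mitochondrial ribosome, a higher one (1.01). With the mouse as a block edgeR called 0 of the 103, with adjusted p-values of these 6 genes from 0.05003 to 0.0667, and 416 in place of 1794 of all genes. Leaving out each library in turn gave 0 to 16 calls among the 103, and 0 in 8 of the 12 fits, while 0.0% to 23.0% of all genes were called. The 16 calls came without untreated eye cup mouse 1, where 23.0% of all genes were called.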

How the data were processed

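RNA was sequenced from the neural retina and eye cup of 12 mice, giving 24 libraries in 8 groups of 3. The deposited table holds counts per gene made by the authors from reads aligned to GRCm39, and FPKM values that the authors computed from them. The submitters' processing notes name CASAVA and HISAT2. The counting tool, its annotation and its use of strand are not given in the sources used here. The table's columns of the authors' comparisons (mean normalised counts, log2 fold changes and p-values) were not used. The authors' FPKM share 1 scale over all 24 libraries, so that they were compared between genes and tissues.

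Members were the genes on chromosome MT. The members and gene lists were chosen with earlier results of these data known. Counts were tested with edgeR 4.0.16 (quasi-likelihood, TMM scaling) in R 4.3.3 on the libraries of each comparison, over all genes whose summed count there reached 10, with Benjamini-Hochberg adjustment over all genes and a threshold of 0.05. DESeq2 1.42.0 was an alternative. The fitting was tested on simulated data. Shares and ratios are described without a test, so that planned exact tests of summed shares are not given. The 13 mRNAs and 2 rRNAs were named with values, tRNAs where their mean reached 10 counts in a tissue, and fitted changes for at most the 5 smallest adjusted p-values per comparison. In the nuclear lists at most 5 called genes per list and comparison were named, and the most counted pseudogene. Nuclear copies were found by aligning the GRCm39 mitochondrial genome to the nuclear genome. Printed sequences are those of GRCm39.

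Retina and eye cup of the same number come from the same mouse, and the correlation of their deviations was 0.0654 to 0.114. Mice of different groups that share a number are not paired. Total counts were 15825059 to 24908314 per library, and intervals cover counting error only.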

Additional observations from a re-analysis of the deposited data

Results flagged for a closer look

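In wildtype mice, the change with dox differed between retina and eye cup for 3 mitochondrial genes by the interaction test of edgeR, which were 3 of 31 tested members (9.68%) beside 7.53% of all genes. The difference of the log2 fold changes (retina minus eye cup) was 1.44 for mt-Co3 in the joint fit, and the fits of each tissue alone, which are scaled separately and so do not subtract exactly to it, gave 0.08 in retina and -1.43 in eye cup. For mt-Tc it was 1.39, with -0.10 in retina and -1.57 in eye cup, and for mt-Nd5 it was 1.08, with -0.09 in retina and -1.25 in eye cup. With the mouse as a block, mt-Co3 passed (adjusted p = 0.0485, edgeR), while mt-Tc and mt-Nd5 did not (0.0593 and 0.0667). No member was called without any one of the 3 untreated retinas, dox retinas 1 or 2 or dox eye cups 1 or 2. RPE markers were lower and rod markers higher in the dox than in the untreated wildtype eye cups, and their part in these values was not tested. The gap test for a single outlying sample needs groups of at least 4 libraries and was not run here.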

How the results depend on the processing

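With 3 mice per group, counts of called members moved with the settings. DESeq2 called 1 member for dox in wildtype retinas, 1 between untreated genotypes in retina, 17 for dox in wildtype eye cups, 1 between dox genotypes in eye cup and 13 for the difference between tissues in the change with dox, where it called 0.451%, 0.0194%, 18.5%, 0.547% and 17.3% of all genes. Scaling by library size gave 0 for dox in PRDM13-OE retinas, 10 between dox genotypes in retina, 6 for dox in wildtype eye cups and 6 for the tissue difference (5.58%, 15.5%, 6.18% and 14.8% of all genes). Without a filter on low counts the calls were 5 and 3 for dox in wildtype and PRDM13-OE retinas, 10 and 2 between dox and untreated genotypes in retina, 1 for the retina interaction, 12 for dox in wildtype eye cups and 8 for the tissue difference (2.07%, 5.78%, 12.1%, 0.364%, 4.64%, 5.52% and 7.42% of all genes). The filterByExpr filter gave 7 for the tissue difference (13.1% of all genes). Between dox genotypes in retina, robust fitting gave 2 (14.1% of all genes), a fit of all retina libraries 2 (8.52%), and adding the chromosome 1 copy, chosen after seeing the data, 1. Requiring a log2 fold change past 1 left 0 there and 0 for dox in PRDM13-OE retinas.

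Leaving out single libraries gave 0 to 9 calls for dox in wildtype eye cups, 0 to 6 between dox genotypes in retina, 0 to 1 for dox in PRDM13-OE retinas, 0 to 1 between untreated genotypes in retina, 0 to 1 between dox genotypes in eye cup, 20 to 24 between tissues and 0 to 12 for the tissue difference. In these fits the share of all genes called reached 13.5%, 11.0%, 5.34%, 0.0247%, 10.4%, 64.8% and 23.0%. The replicate block gave 1 call for the tissue difference (1.75% of all genes) and moved no other count by more than 1.5 times. No named gene reversed, but 49 fits without a library and 15 other fits lost the threshold. The cause was not tested. For the nuclear genes, leaving out libraries and the block were chosen after seeing the data.

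With the authors' FPKM in place of counts, which weights genes by length, the difference in mitochondrial share was -0.337 points for dox and 0.573 for genotype in retina and -9.89 between tissues. The tRNA share differed by -0.189 and -0.136 points for dox and genotype in retina, -0.733 and -0.165 in eye cup and -1.19 between tissues, and the minus-strand share by -0.492, -0.332, -1.37, -0.563 and -3.65 in the same order.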
